A study of Mus musculus with 16 samples.

Results

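The 42 genes described here work in DNA replication and the S phase of the cell cycle, and were measured in cultured mouse muscle cells. They are a list of protein-coding genes, 42 of the 35613 genes with a name in the files, and all 42 passed the filter on low counts. The genes were taken by function and fall into 7 roles: origin licensing (10 genes), helicase activation (6), polymerases and primase (6), the sliding clamp and its loader (6), lagging strand synthesis and single-strand binding (4), deoxynucleotide supply (4), and regulators of the G1/S transition with a chromatin factor (6).

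The study sequenced poly(A) RNA from 16 libraries of primary myoblasts, the dividing precursor cells of skeletal muscle, that carry Pax7-nGFP, a nuclear green fluorescent reporter of the muscle stem cell gene Pax7. Every library carried this genotype. Bulk myoblasts were unsorted cells grown in serum-rich medium with basic FGF and harvested at passage 3. Differentiated myoblasts, of passage 4 to 5, spent 3 days in medium with little serum. Bulk MPC (the labels do not spell the name out) had first spent 2 to 3 passages as myoblasts. They then spent 5 to 6 passages in a medium with forskolin (5 µM), which raises cyclic AMP, RepSox (5 µM), an inhibitor of the TGF-beta receptor, and CHIR9901 (3 µM, spelled as in the labels). GFP+ MPC were sorted from such cultures by reporter fluorescence, and GFP+ myoblasts were sorted from myoblasts at passage 5 to 6. These 5 groups held 3 libraries each, named biological replicates, from parental lines of male animals aged 16 weeks. The labels do not say whether each replicate is a separate line, so p-values measure the spread between these libraries. A single further library, high-passage GFP+ MPC, came from a line of a female aged 39 weeks: its GFP- myoblasts were sorted at passage 8 and spent 2 passages in MPC medium, and it entered no test. Sorted and unsorted cells also differed in the RNA kit, and GFP+ and bulk myoblasts in passage. Sorting, kit and passage cannot be told apart in those comparisons. Differentiated myoblasts and bulk MPC also differed from bulk myoblasts in passage. In the comparisons between whole cultures, medium and passage therefore cannot be told apart.

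Before a cell enters S phase, the origin recognition complex, Cdc6 and Cdt1 load the ring-shaped Mcm2-7 helicase onto replication origins. Mcm10, Cdc45 and the GINS complex then turn the ring into an active helicase, primase with polymerase alpha lays down primers, and polymerases delta and epsilon extend them on the Pcna clamp that the RFC complex loads. In muscle cultures these genes are known to be on in dividing myoblasts and low once cells leave the cell cycle to form myotubes, and most of them are known targets of E2F transcription factors.

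Promoters were listed in RefSeq for 34 of the 42 genes, each with 250 bases before and 50 after a transcription start. They are shown because the members moved together in most comparisons, and because Rrm2, Gins3 and E2f2 departed from the others. Coordinates are on GRCm38.p6, another build than that of the deposited files. Capitals mark matches to 4 octamers bound by E2F factors, TTTGGCGC, TTTCCCGC, TTTGCCGC and TTTCGCGC, searched on both strands.
Mcm6 (chr1:128359656-128359955, minus strand): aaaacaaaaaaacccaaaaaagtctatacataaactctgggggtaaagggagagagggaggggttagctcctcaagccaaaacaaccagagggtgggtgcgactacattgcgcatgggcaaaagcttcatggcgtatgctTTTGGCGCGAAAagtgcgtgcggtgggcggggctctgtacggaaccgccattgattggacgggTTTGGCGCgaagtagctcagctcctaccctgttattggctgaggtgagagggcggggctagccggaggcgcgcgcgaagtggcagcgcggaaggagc
Rfc3 (chr5:151651159-151651458, minus strand): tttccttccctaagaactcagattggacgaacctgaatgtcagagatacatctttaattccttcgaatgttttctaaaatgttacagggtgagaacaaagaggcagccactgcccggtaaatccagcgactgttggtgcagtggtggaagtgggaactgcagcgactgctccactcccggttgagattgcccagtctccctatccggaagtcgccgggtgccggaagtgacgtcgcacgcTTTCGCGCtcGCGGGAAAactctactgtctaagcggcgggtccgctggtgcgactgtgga
Rrm2 (chr12:24708004-24708303, plus strand): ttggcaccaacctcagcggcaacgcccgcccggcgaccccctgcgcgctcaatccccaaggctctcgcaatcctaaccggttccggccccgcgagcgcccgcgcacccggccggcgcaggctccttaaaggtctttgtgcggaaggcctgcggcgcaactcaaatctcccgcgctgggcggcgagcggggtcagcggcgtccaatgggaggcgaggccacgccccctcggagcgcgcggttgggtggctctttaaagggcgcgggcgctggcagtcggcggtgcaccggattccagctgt
Gins3 (chr8:95633309-95633608, plus strand): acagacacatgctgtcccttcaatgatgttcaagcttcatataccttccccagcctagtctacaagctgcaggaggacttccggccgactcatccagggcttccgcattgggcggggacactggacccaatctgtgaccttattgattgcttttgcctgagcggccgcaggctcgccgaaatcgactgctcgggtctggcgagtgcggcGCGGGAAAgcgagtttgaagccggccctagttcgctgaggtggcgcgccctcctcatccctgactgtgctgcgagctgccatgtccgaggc
E2f2, the upstream of its 2 listed starts (chr4:136172024-136172323, plus strand): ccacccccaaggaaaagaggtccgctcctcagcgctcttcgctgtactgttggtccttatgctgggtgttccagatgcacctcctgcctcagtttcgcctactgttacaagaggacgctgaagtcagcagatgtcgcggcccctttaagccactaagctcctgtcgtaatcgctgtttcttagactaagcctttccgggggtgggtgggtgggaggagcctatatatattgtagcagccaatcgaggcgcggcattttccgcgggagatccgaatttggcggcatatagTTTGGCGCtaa

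Mcm6 held 3 octamers, with first bases 110, 106 and 47 before the start, and the first pair of them overlapped. Rfc3 held 2, with first bases at -10 and at the start itself. Gins3 held 1 at -41, E2f2 1 at 39 after the start, and Rrm2 none. Each printed promoter held the CCAAT box: Rrm2 at -50, Mcm6 at -57 and -14, and Rfc3 at -229. Gins3 held it at -144 and -124, and E2f2 at -13. In all, 15 of 34 members (44.1%) held an E2F octamer in a listed promoter: Orc1, Cdc6, Cdt1, Mcm3, Mcm5, Mcm6, Mcm7, Gins3, Pola1, Pold1, Rfc3, Lig1, E2f2, Dtl and Uhrf1. The same search found it in 2.60% of all 27025 genes with a listed promoter and in 4.47% of the tested genes among them. The CCAAT box (CCAAT, both strands, overlaps with the octamers allowed) was found in 22 of 34 members (64.7%) against 42.9% of tested genes, and the CHR element TTTGAA in 5 of 34 (14.7%) against 14.4%. A match is a description of these letters and is not evidence of a bound site. Positions count from the RefSeq start. The first bases after that start occurred in annotated transcripts of the gene for Rfc3, Rrm2 and Gins3, but not for Mcm6 and E2f2.

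Total estimated counts per library were 19300307 to 29127963. Markers of myogenic cells (Pax7, Myf5, Myod1, Des and Cdh15) summed to 1634 to 7976 CPM (counts scaled by library size) in every library. Lists for endothelium, leukocytes, Schwann cells and adipocytes summed to at most 3.96 CPM in any library. Of 7 markers of fibroblasts and fibro-adipogenic progenitors, at least 6 were detected in every group. Their sum was 56.8 CPM in bulk MPC replicate 2 and 1.26 and 1.61 CPM in the other replicates of that group, with Dcn at 31.5, Pdgfra at 12.5 and Lum at 8.24 CPM in replicate 2. The same library was above both other bulk MPC replicates for 42 of 42 replication genes. GFP+ myoblast replicate 3 was above both others of its group for 40 members, GFP+ MPC replicate 3 for 31, and bulk myoblast replicate 3 below both for 38. These counts were not made over all tested genes, so whether such shifts are particular to the members was not tested. The part of these markers and libraries in the results was not tested. Results of the 42 members that rest on 1 library are given with and without it. Counts of the other gene lists are given only with all libraries.

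Summed over the 42 genes, the level per transcript length (TPM, a unit scaled for transcript length and library size) was 1838, 1957 and 1511 in bulk myoblasts and 302, 306 and 299 in differentiated myoblasts. It was 443, 846 and 491 in bulk MPC. Sorted cells were highest, at 3845, 3389 and 4574 in GFP+ myoblasts and 3393, 3889 and 4727 in GFP+ MPC. The whole cultures did not overlap with each other or with the sorted cells, whereas the sorted groups overlapped. Means were 1769 ± 231 (SD, n = 3) in bulk myoblasts, 302 ± 3.46 in differentiated myoblasts, 593 ± 220 in bulk MPC, 3936 ± 598 in GFP+ myoblasts and 4003 ± 674 in GFP+ MPC. In these bulk samples, fewer cells in the cell cycle and less RNA per cell cannot be told apart.

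**Figure D1:**
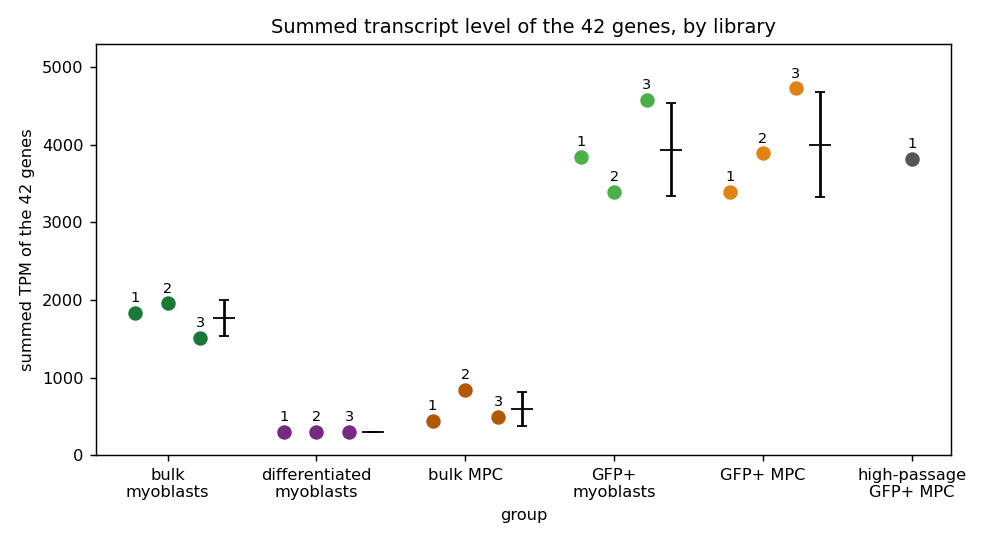
Summed TPM of the 42 replication genes (vertical axis, linear from 0) in each of 16 libraries by group; numbers are replicate numbers, and bars beside 3 points are the mean ± SD. Sorted groups lie between 3389 and 4727 TPM, bulk myoblasts between 1511 and 1957, and bulk MPC replicate 2, at 846, lies above the other bulk MPC libraries.

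**Figure D2:**
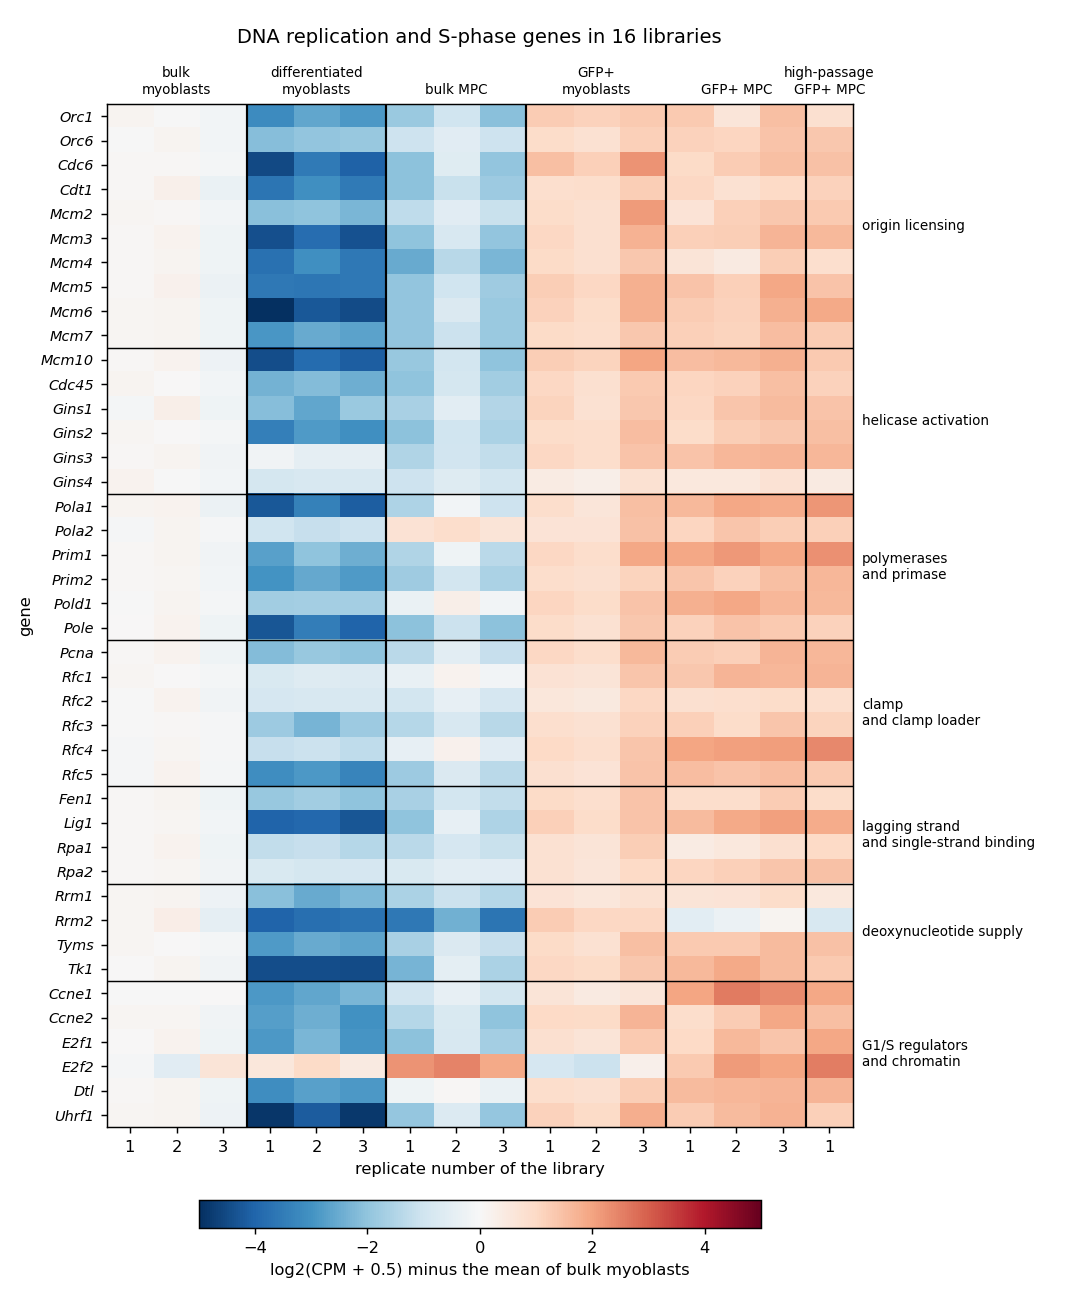
Each row is a gene, grouped by role, and each column a library; color is log2(CPM + 0.5) minus the mean of the bulk myoblasts, red above and blue below. Most rows are blue in differentiated myoblasts and bulk MPC and red in sorted cells, while E2f2 and Pola2 are red in bulk MPC, Gins3 is near white in differentiated myoblasts and Rrm2 is near white in GFP+ MPC.

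Replication genes fell together on differentiation. After 3 days in differentiation medium, 40 of 42 replication genes were lower than in bulk myoblasts and none higher, with a median log2 fold change of -2.79 (6.91-fold lower). Over all 15533 tested genes, 28.6% were lower and 25.6% higher, and the median was -0.03. All 10 licensing genes, 5 of 6 helicase activators, all 6 polymerase and primase genes, all 6 clamp and loader genes, all 4 lagging strand genes, all 4 nucleotide genes and 5 of 6 G1/S genes fell. The roles differed in depth: the median was -3.65 in licensing and -3.36 in nucleotide supply, and -1.66 in clamp loading and -1.61 in lagging strand synthesis.

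Among licensing genes, Mcm6, a subunit of the helicase ring, was at 99.8, 103 and 79.6 CPM in bulk myoblasts and at 1.92, 4.44 and 3.76 CPM after differentiation. It fell by 4.81 ± 0.42 (log2 fold change ± SE, adjusted p = 1.7e-06, edgeR quasi-likelihood test). Cdc6, the ATPase that loads the ring, was at 14.8, 15 and 13.2 CPM and then at 0.15, 0.79 and 0.39 CPM, that is 3, 14 and 7 counts. Both genes were low in every differentiated library, with no overlap, and Cdc6 fell by 5.03 ± 0.55 (5.74 without differentiated replicate 2). Orc1, the largest subunit of the origin recognition complex, fell by 4.35 ± 0.47, from 5.39, 4.79 and 4.43 CPM to 2, 7 and 4 counts. At these counts the depth of the fall is imprecise. Of this role, Orc6 (-2.11 ± 0.17) and Mcm2 (-2.16 ± 0.32) fell least.

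In helicase activation, Mcm10 fell by 4.94 ± 0.39, from 19.6, 21.5 and 15.7 CPM to 0.39, 0.84 and 0.62 CPM, and Gins2 by 3.62 ± 0.32. Gins3, another of the 4 GINS subunits, did not pass the threshold. It was at 5.25, 5.6 and 4.4 CPM in bulk myoblasts and 4.38, 3.59 and 3.54 CPM after differentiation, with every differentiated library just below every myoblast library (-0.40 ± 0.21, adjusted p = 0.12, edgeR). Without TMM, a scaling that sets libraries to a common level from most genes, Gins3 passed as lower (-0.62, adjusted p = 0.026). Gins4 fell by 0.86 ± 0.15.

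DNA polymerase genes also differed in depth. Pola1, the catalytic subunit of polymerase alpha, fell by 4.26 ± 0.41, from 31.2, 32 and 23.1 CPM to 1.03, 2.3 and 1.18 CPM. Its partner subunit Pola2 fell by 1.09 ± 0.18, from 27.4, 32.2 and 27.5 CPM to 14.3, 12.8 and 13.8 CPM. Pole, the catalytic subunit of polymerase epsilon, fell by 4.10 ± 0.32 and Pold1, that of polymerase delta, by 1.77 ± 0.17. Among loader subunits, Rfc5 fell by 3.33 ± 0.29, while Rfc1 (-0.71 ± 0.19) and Rfc2 (-0.84 ± 0.16) fell least. Pcna, the clamp, was at 103, 111 and 86.7 CPM and then 22, 26.6 and 24.6 CPM (-2.04 ± 0.24). Lig1, the ligase that joins Okazaki fragments, fell by 4.36 ± 0.37, and the single-strand binding subunits Rpa1 and Rpa2 by 1.27 ± 0.18 and 0.86 ± 0.13.

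For nucleotide supply, Tk1, the S-phase thymidine kinase, was at 33.9, 36.7 and 29.7 CPM in bulk myoblasts and 1.08, 1.07 and 1.01 CPM after differentiation, and fell by 4.98 ± 0.43. Rrm2, the regulatory subunit of ribonucleotide reductase whose level follows S phase, fell by 3.90 ± 0.34, from 345, 409 and 234 CPM to 19.3, 22.7 and 24.2 CPM. Its catalytic partner Rrm1 fell by 2.31 ± 0.16. Uhrf1, which recruits the maintenance DNA methyltransferase to new DNA, fell by 4.77 ± 0.39, and Ccne1, cyclin E1, by 2.65 ± 0.19. E2f2, an activator of the E2F family, was the only member with a positive value (0.59 ± 0.36, adjusted p = 0.18), at 43.5, 30.3 and 70.4 CPM in bulk myoblasts and 66.5, 88.6 and 62.5 CPM after differentiation. These libraries overlapped, and E2f2 passed as higher without bulk myoblast replicate 3 (0.97, adjusted p = 0.0486), whereas E2f1, its close relative, fell by 2.82 ± 0.33.

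Genes of the same pathway outside the list moved the same way at another scale. Of 15 other licensing and firing factors, 13 were lower after differentiation and none higher (median -2.22), with the origin firing factor Ticrr at -5.33 ± 0.42, and Orc2 (-0.45) and Orc3 (-0.06) not past the threshold. Of 19 other fork and polymerase subunits 17 were lower (median -1.44), with Pold4 (0.56) and Pole4 (-0.38) not past it. Of 20 mitotic genes all 20 were lower, with a median of -5.23, and Mki67 fell by 6.11. Rrm2b, the p53-responsive form of the small reductase subunit, rose by 0.57, the single gene of 15 in the list of other nucleotide and histone supply that rose, against 14 that fell. Most messages of replication-dependent histone genes lack a poly(A) tail. Of 25 names listed for such genes, only 9 matched a gene in the deposited data. Of these, 6 passed the filter on low counts in these poly(A) libraries. All 6 rose, Hist1h1e by 2.90.

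Bulk MPC cultures held less replication RNA than bulk myoblasts. In this comparison 35 of 42 members were lower and 2 higher (median -1.29, 2.45-fold lower), against 30.1% of tested genes lower, 28.4% higher and an overall median of -0.01. These values come from a fit that did not pair same-numbered libraries. With the replicate number as a block, 36 members were lower and 2 higher. All 10 licensing genes, all 6 helicase activators, all 4 lagging strand genes and all 4 nucleotide genes fell. The roles with exceptions were polymerases and primase (3 lower, 1 higher), the clamp and its loader (4 lower) and the G1/S group (4 lower, 1 higher).

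Mcm6 was at 23.6, 57.1 and 25.4 CPM in bulk MPC and fell by 1.41 ± 0.35 (adjusted p = 0.0035, edgeR). Mcm4 fell by 2.01 ± 0.29, the largest fall among licensing genes, from 93.2, 99.1 and 77.2 CPM to 15.4, 33.5 and 18.1 CPM. Replicate 2 lay nearest to the myoblasts for each, and no bulk MPC library reached a bulk myoblast library. Without bulk MPC replicate 2, Orc1, Cdc6, Lig1 and Tk1 were at -2.48, -2.17, -1.81 and -1.995, against -1.87, -1.45, -1.19 and -1.30 with it, and 37 members were lower. The calls of Mcm2 (-0.96 ± 0.30) ended without bulk MPC replicate 1 or 3, and those of Prim1 (-0.94 ± 0.35), the catalytic primase subunit, without either of these or bulk myoblast replicate 1 or 2, and with only the compared groups in the fit.

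The genes that were not lower had several roles. E2f2 was at 218, 255 and 171 CPM in bulk MPC, above every bulk myoblast library, and rose by 2.15 ± 0.37 (adjusted p = 0.00028). Pola2 was at 48.2, 53 and 45.6 CPM, also above every bulk myoblast library, and rose by 0.75 ± 0.18 (adjusted p = 0.0027). Pold1 (-0.03 ± 0.16), Rfc1 (-0.09 ± 0.19), Dtl (-0.17 ± 0.15), Rfc4 (-0.22 ± 0.20) and Pola1 (-0.82 ± 0.33) did not pass the threshold. Dtl is the substrate receptor that directs Cdt1 to degradation in S phase, and stood at 28.5, 35.1 and 26.1 CPM against 34.7, 37.3 and 28.9 CPM. Rfc4 (-0.52) and Pola1 (-1.31) passed as lower without bulk MPC replicate 2, and without TMM so did Rfc4 (-0.57), Pola1 (-1.15) and Dtl (-0.53). Pola1 also passed without bulk myoblast replicate 3 (-0.96), with DESeq2 (-0.79), with no filter on low counts (-0.85), with length-scaled counts (-0.83) and with the replicate number as a block (-0.89, adjusted p = 0.032, edgeR).

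The Pola2 value depended on how it was measured. Without TMM, Pola2 was at 0.39 (adjusted p = 0.067), and with counts scaled for transcript length at 1.18. Its leading transcript, Pola2-201, was at 24.5, 26.6 and 23.4 CPM in bulk MPC and 17.6, 21.9 and 18.4 CPM in bulk myoblasts. This transcript held 50.7% ± 0.49 of the gene's counts in bulk MPC and 66.4% ± 2.06 in bulk myoblasts. Transcript Pola2-209 was estimated at 3.86, 3.11 and 3.57 CPM in bulk MPC and at 0 in bulk myoblasts, and Pola2-211 at 4.64, 2.92 and 4.88 against 0.65, 0.70 and 1.09 CPM. For E2f2, 97.2% of counts lay on the single transcript E2f2-201, and its rise was at 1.80 without TMM and 2.11 with length scaling.

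Rrm2 showed the largest fall of the list in this comparison. It was at 26.5, 61 and 24.9 CPM in bulk MPC, far below the 234 to 409 CPM of bulk myoblasts, and fell by 3.13 ± 0.33 (adjusted p = 5.2e-06). Rrm1 fell by 1.36 ± 0.16, to 73.2, 104 and 81 CPM from 237, 242 and 184 CPM. Of the other genes of the pathway, those lower were 11 of 15 other licensing and firing factors (median -0.83), 11 of 19 other fork subunits (median -0.89), 11 of 15 genes of other nucleotide and histone supply (median -1.10) and 19 of 20 mitotic genes (median -1.32). Single genes of these lists rose, Pold4 by 0.97 and Rrm2b by 0.37. Of 20 other G1/S regulators 11 fell and 4 rose (median -0.61), and of 6 replication-dependent histone genes 3 rose and none fell (median 0.21), with Hist1h1e at 1.57. Among D cyclins, which start the G1/S program, Ccnd2 fell by 4.47 and Ccnd1 by 2.05, while Ccnd3 rose by 0.44. Of 10 genes of terminal muscle differentiation, 7 rose and none fell, among them the muscle creatine kinase gene Ckm (3.24).

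**Figure D3:**
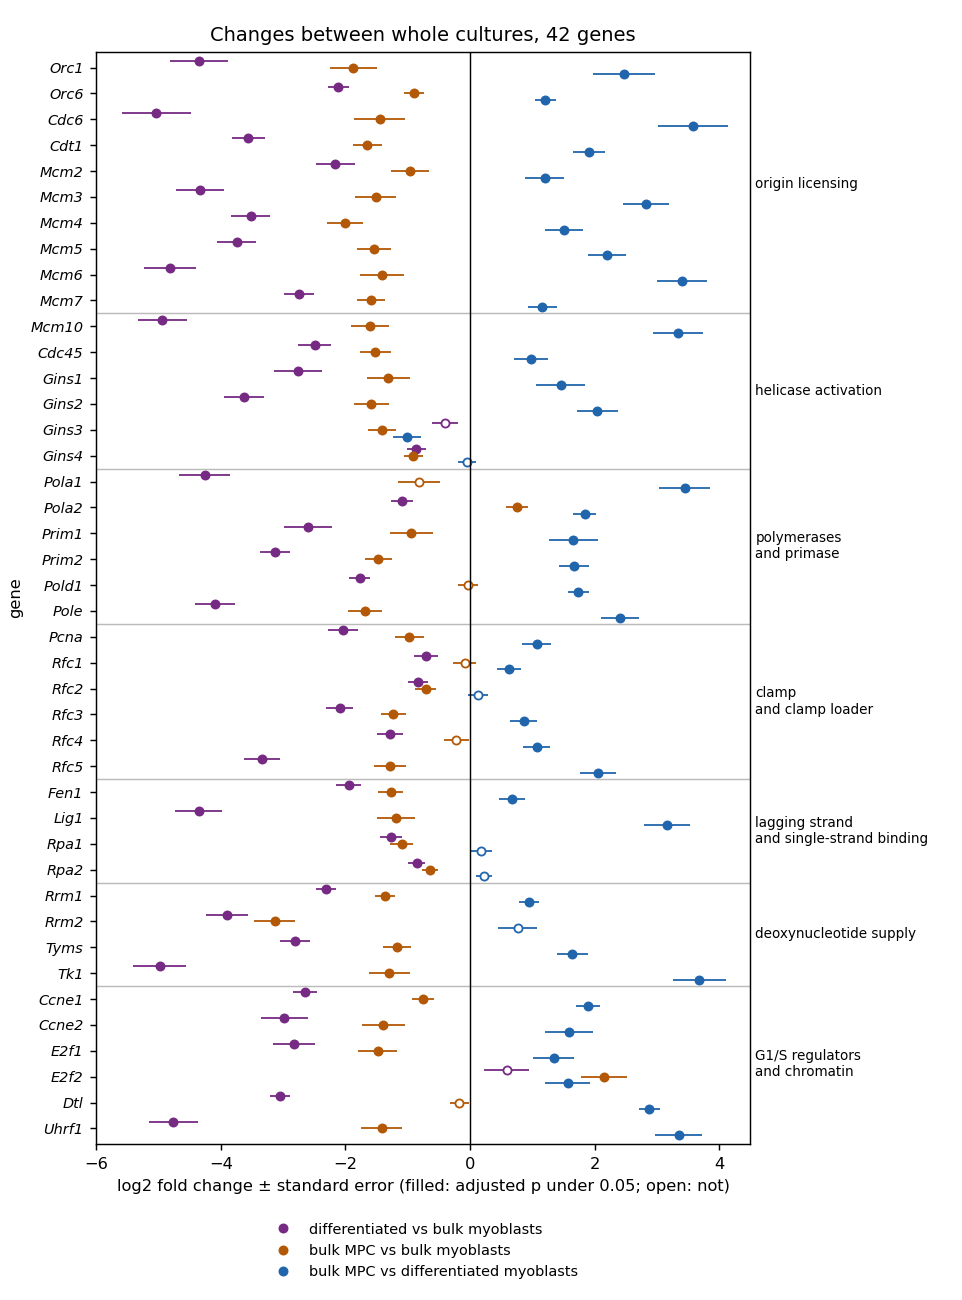
Log2 fold change ± SE (horizontal axis) of each of the 42 genes between whole cultures, with filled points for adjusted p under 0.05 and open points otherwise. Differentiated cultures lie furthest left, bulk MPC between them and bulk myoblasts, and E2f2, Pola2, Gins3 and Gins4 break the order.

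Both bulk MPC (17711 to 22864 CPM) and differentiated myoblasts (23205 to 28980 CPM) held much Myh3, the embryonic myosin gene. Compared with each other, 36 of 42 members were higher in bulk MPC and 1 lower (median 1.62, 3.07-fold higher). Among tested genes, 24.4% were higher, 19.4% lower and the median was 0.07. The largest differences were in Tk1 (3.68 ± 0.42), Cdc6 (3.58 ± 0.56), Pola1 (3.45 ± 0.41), Mcm6 (3.40 ± 0.40) and Uhrf1 (3.35 ± 0.38). Gins3 went the other way, at 1.45, 2.39 and 1.86 CPM in bulk MPC, below all 3 differentiated libraries (-1.01 ± 0.22, adjusted p = 0.0025, edgeR). The 5 genes that did not pass were Gins4 (-0.05 ± 0.15), Rfc2 (0.13 ± 0.16), Rpa1 (0.17 ± 0.18), Rpa2 (0.22 ± 0.13) and Rrm2 (0.77 ± 0.31). Rrm2 thus stood at 24.9 to 61 CPM in bulk MPC beside 19.3 to 24.2 CPM in differentiated myoblasts, with every bulk MPC library above, and passed as higher without bulk MPC replicate 1 (0.97) or 3 (0.99) and with DESeq2 (0.75). Without bulk MPC replicate 2, 32 members were higher: the calls of Cdc45, Gins1, Rfc1 and Fen1 ended, and Orc1, Cdc6, Lig1 and Tk1 were at 1.87, 2.87, 2.54 and 2.99. Cdc6 was at 4.28 without differentiated replicate 2. The calls of Rfc1 and Fen1 also ended without differentiated replicate 1, and that of Fen1 without replicate 3. Calls also ended for Cdc45 with only the compared groups in the fit (0.92), for Gins1 (0.99) and Rfc1 (0.53) with length-scaled counts, and for Rfc1 (0.49) and Fen1 (0.55) without TMM. This comparison and those with bulk myoblasts share libraries, so their values are set side by side and are not independent.

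**Figure D4:**
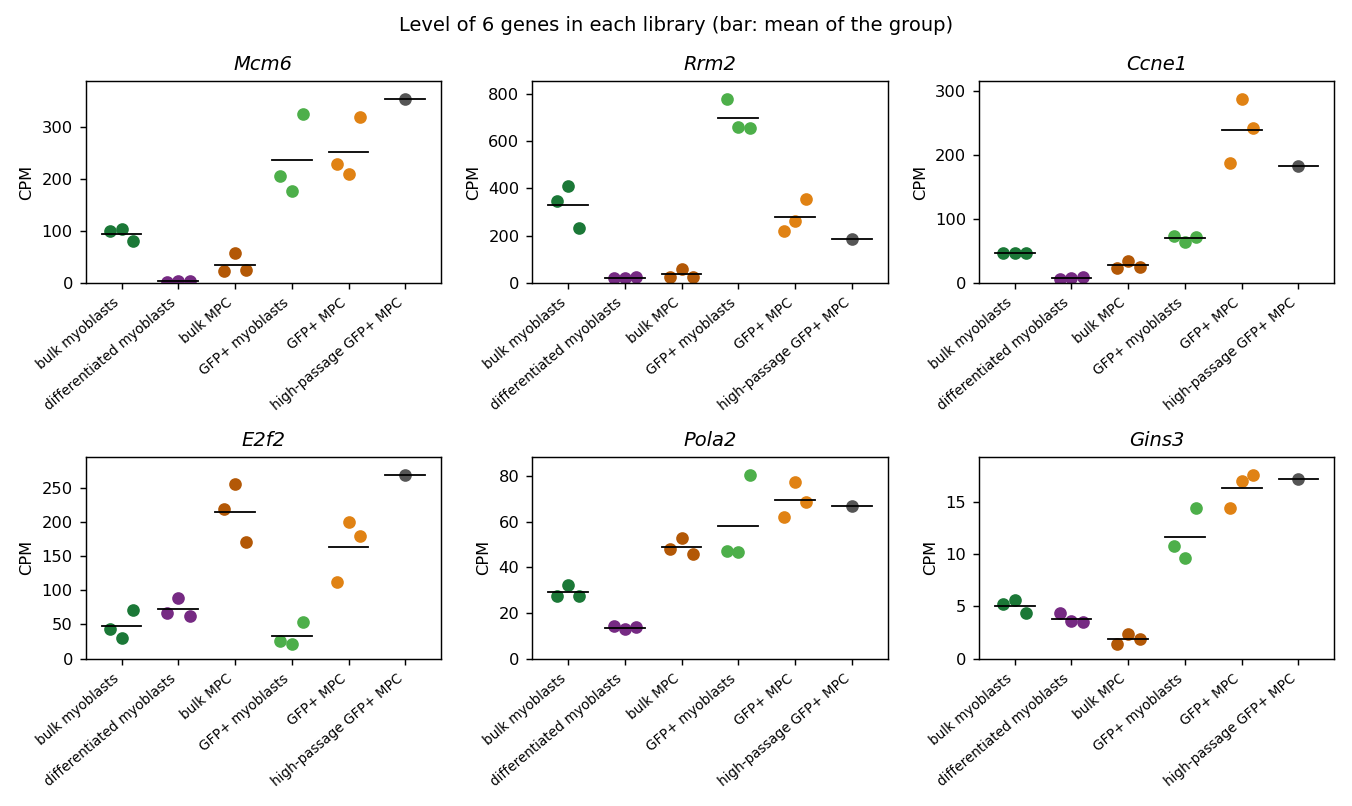
CPM of 6 genes (vertical axes, linear from 0) in each library by group, with a bar at the group mean. Mcm6 shows the common pattern, Rrm2 is lower in GFP+ MPC than in GFP+ myoblasts, Ccne1 is highest in GFP+ MPC, E2f2 and Pola2 are higher in bulk MPC than in bulk myoblasts, and Gins3 is lowest in bulk MPC.

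Sorted cells held more replication RNA than the whole cultures. In MPC cultures 41 of 42 members were higher in GFP+ cells and none lower (median 2.76, 6.79-fold higher), where 32.9% of tested genes were higher, 33.7% lower and the median was -0.01. In myoblasts 41 of 42 were also higher and none lower, with a median of 1.08 (2.12-fold higher), where 12.7% of tested genes were higher, 17.4% lower and the median was -0.02. E2f2 was the member outside both counts, at -0.39 ± 0.36 (0.08 without TMM) and -0.53 ± 0.36. The sort used the Pax7 reporter and none of these genes.

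Mcm6 was at 228, 208 and 318 CPM in GFP+ MPC, at least 3 times the highest bulk MPC library, and rose by 2.83 ± 0.36 over bulk MPC. It was at 206, 176 and 324 CPM in GFP+ myoblasts, above every bulk myoblast library, and rose by 1.32 ± 0.34 over them. In GFP+ MPC against bulk MPC, rises ran from 0.50 ± 0.18 for Pola2 to 3.27 ± 0.31 for Mcm10, with Orc1 at 3.15 ± 0.38, Gins3 at 3.10 ± 0.22, Ccne1 at 3.10 ± 0.19 and Mcm5 at 3.09 ± 0.29. Pola2 was at 62.1, 77.2 and 68.6 CPM in GFP+ MPC. Its call (adjusted p = 0.022) ended without bulk MPC replicate 1 or 3 or GFP+ MPC replicate 2 and with length-scaled counts (0.04). Without bulk MPC replicate 2, Orc1, Cdc6, Lig1 and Tk1 were at 3.76, 3.45, 3.68 and 3.70.

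In GFP+ myoblasts, rises ran from 0.50 ± 0.15 for Gins4 to 1.75 ± 0.39 for Cdc6, with Mcm10 at 1.496 ± 0.29 and Mcm2 at 1.41 ± 0.30. Cdc6 was at 41.8, 33.5 and 69.8 CPM and Mcm2 at 144, 133 and 329 CPM. Replicate 3 was the highest for each, and all 3 libraries lay above bulk myoblasts. Without GFP+ myoblast replicate 3, 31 members were higher and E2f2 was lower (-1.05, adjusted p = 0.0449), and without bulk myoblast replicate 3, 28 were higher. The calls that ended in both settings were those of Mcm3, Mcm4, Mcm6, Gins1, Gins4, Pola1, Tk1, Ccne1, Ccne2 and E2f1. Without bulk myoblast replicate 3, those of Orc1 (1.26), Pole (0.94) and Rrm2 (0.89) ended too. The call of Ccne1 also ended without GFP+ myoblast replicate 1, those of Gins1, Pola1, Tk1, Ccne1 and E2f1 without bulk myoblast replicate 1, and those of Gins4, Pola1 and Ccne1 without bulk myoblast replicate 2.

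The difference between sorted and whole cells was itself larger in MPC than in myoblast cultures for 38 of 42 members and smaller for none past the threshold, by the interaction term of the same edgeR fit. The median difference was 1.58 on the log2 scale, where 20.3% of tested genes had a larger value in MPC, 16.8% a smaller one, and the median was 0.09. It was largest for Ccne1 (2.53 ± 0.25), Pole (1.96 ± 0.38), Gins3 (1.91 ± 0.29) and E2f1 (1.90 ± 0.42). Cdc6 (0.98 ± 0.55), Mcm2 (0.66 ± 0.42), E2f2 (0.14 ± 0.51) and Pola2 (-0.50 ± 0.25) did not pass. Cdc6 passed without bulk MPC replicate 2 (1.698) and Mcm2 without GFP+ myoblast replicate 3 (1.209). With length-scaled counts Pola2 passed as smaller (-0.91), and leaving out single libraries gave 33 to 39 members past it. The interaction term uses the same libraries as bulk MPC against bulk myoblasts and the comparison of sorted groups, so it is not independent of them. Passage differed between sorted and whole cells in myoblasts but not in MPC, so its part in this term cannot be told apart. All 10 markers of terminal differentiation were lower in sorted than in whole cells in both cultures, with medians of -5.07 in MPC and -5.40 in myoblasts. Myh3 fell to 159 to 427 CPM in GFP+ MPC from 17711 to 22864 CPM in bulk MPC. In the interaction term, 1 of the 10 markers had a larger value in MPC and 1 a smaller one (median 0.43). The part of these markers in the replication genes' values was not tested.

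Outside the list, the sort of MPC cultures gave higher values in the GFP+ cells for 13 of 15 other licensing and firing factors, 18 of 19 other fork subunits and 20 of 20 mitotic genes (medians 2.29, 2.37 and 3.20). In myoblasts the counts were 12, 16 and 11 (medians 0.92, 0.96 and 0.86). Pold4, the smallest subunit of polymerase delta, was lower in both sorts, by -2.04 and -1.22, and 5 of the 6 histone genes tested were lower in each, with Hist1h1e at -4.05 and -3.29. The CDK inhibitor gene Cdkn1a, which holds cells in G1, was also lower in both, by -2.86 and -1.28. The 7 CDK inhibitor genes did not move as a set. In the MPC sort 1 was higher and 2 lower (median 0.26), and in the myoblast sort 0 were higher and 2 lower (median -0.36).

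**Figure D5:**
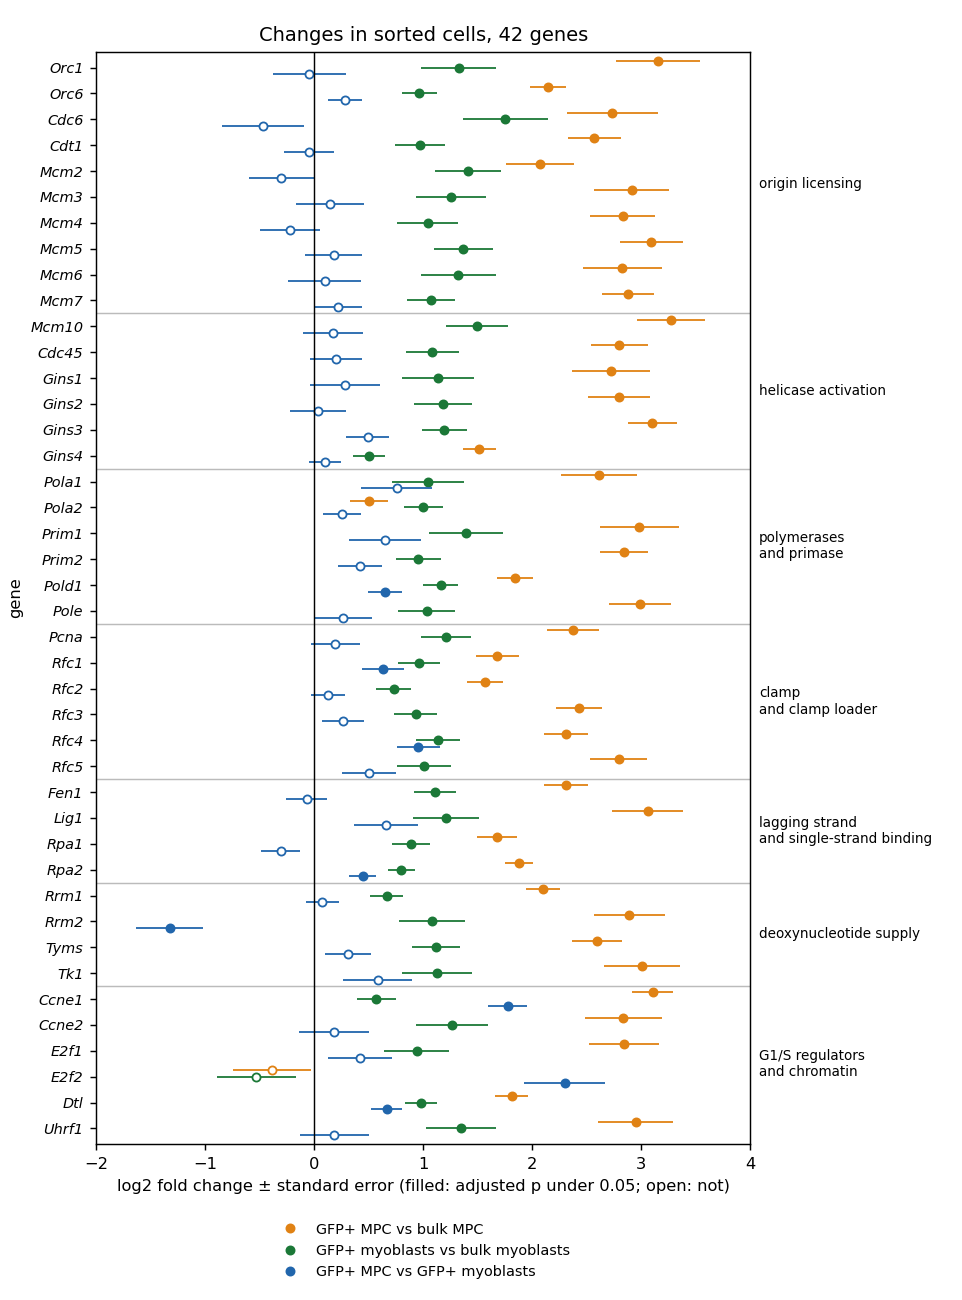
Log2 fold change ± SE (horizontal axis) of each of the 42 genes in GFP+ MPC against bulk MPC, GFP+ myoblasts against bulk myoblasts, and GFP+ MPC against GFP+ myoblasts, with filled points for adjusted p under 0.05. The rises over whole cultures center on 2.76 in MPC and 1.08 in myoblasts, while most points between the sorted groups lie closer to 0. Between the sorted groups, E2f2, Ccne1 and Rrm2 lie furthest from 0, followed by Rfc4.

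Between the sorted groups, most members did not differ past the threshold: 7 were higher in GFP+ MPC, 1 was lower and 34 did not pass. The median was 0.24, where 26% of tested genes were higher, 22.7% lower and the overall median was 0.09. None of the 10 licensing genes and none of the 6 helicase activators passed, with values from -0.47 (Cdc6) to 0.28 (Orc6) and from 0.03 (Gins2) to 0.49 (Gins3). The members that passed were a polymerase gene, loader subunits, a single-strand binding subunit, G1/S regulators and a reductase subunit.

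E2f2 was at 112, 200 and 179 CPM in GFP+ MPC and 25.4, 21.1 and 53.8 CPM in GFP+ myoblasts, and rose by 2.30 ± 0.38 (adjusted p = 0.00025, edgeR). Ccne1 was at 187, 286 and 241 CPM and at 72.8, 64.2 and 72 CPM, and rose by 1.77 ± 0.18 (adjusted p = 4.8e-06). Neither gene overlapped between the groups, and both stood at least 2 times higher in the lowest GFP+ MPC library than in the highest GFP+ myoblast library. Ccne2, which encodes the other cyclin E, was at 30.2, 39.7 and 64.6 CPM and 32.9, 32.3 and 53.7 CPM (0.18 ± 0.32, adjusted p = 0.67). Rfc4 was at 35.6, 37.8 and 39.2 CPM against 18.1, 16.2 and 23.9 CPM and rose by 0.96 ± 0.19 (adjusted p = 0.0013), also with no overlap. Pold1 (0.65 ± 0.16), Dtl (0.66 ± 0.15), Rfc1 (0.63 ± 0.19) and Rpa2 (0.44 ± 0.12) rose by less. The call of Rfc1 ended without GFP+ myoblast replicate 1 or 2, and that of Rpa2 without replicate 2. With only the compared groups in the fit both calls ended (0.57 and 0.38), and Pola1 (0.69), Lig1 (0.60) and Tk1 (0.52) passed as higher. Gins3 passed with DESeq2 (0.47).

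Rrm2 was the member that fell. It was at 220, 260 and 354 CPM in GFP+ MPC and 775, 658 and 656 CPM in GFP+ myoblasts, with no overlap, and fell by 1.32 ± 0.31 (adjusted p = 0.003). Rrm1 was at 340, 348 and 416 CPM and 355, 323 and 371 CPM (0.07 ± 0.15, adjusted p = 0.71). Without GFP+ myoblast replicate 3, 13 members were higher and 1 lower, and the members added were Gins3, Pola1, Pola2, Prim1, Rfc5 and Tyms, at 0.55 to 1.06. Of 20 mitotic genes, 13 were higher and none lower (median 0.89). Of 7 CDK inhibitor genes, 4 were higher and 1 lower, and Cdkn1c was at 737, 1666 and 995 CPM in GFP+ MPC against 4.43, 2.77 and 1.05 CPM in GFP+ myoblasts. Of 20 other G1/S regulators 6 were higher and 4 lower (median 0.19): the D cyclin gene Ccnd2 fell by 3.08, Ccnd1 by 1.65 and Cdk6, their kinase partner, by 2.54, while Skp2 rose by 1.12, the cyclin A gene Ccna2 by 1.105 and Ccnd3 by 0.74. Of 19 other fork subunits 8 were higher and none lower (median 0.45), and of 15 other licensing and firing factors 5 were higher and 1, Orc4, lower (-0.29, list median 0.42). Of 10 genes of terminal muscle differentiation, 7 were higher in GFP+ MPC and 1, Mymk, lower (-1.18), with a list median of 1.59 and Myh8 at 4.70 and Ckm at 4.53. The part of these muscle genes in the replication genes' values was not tested.

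Levels can be compared between genes only per length, and in TPM the order within complexes also changed. In ribonucleotide reductase, the ratio of Rrm2 to Rrm1 in TPM was 3.39, 3.08 and 2.79 in GFP+ myoblasts and 2.20, 2.71 and 2.17 in bulk myoblasts. It was 1.04, 1.25 and 1.40 in GFP+ MPC, 0.52, 1.03 and 0.49 in bulk MPC, and 0.59, 0.96 and 0.86 in differentiated myoblasts. Each myoblast library in growth medium was above each library of the MPC and differentiated groups. The ratio of E2f2 to E2f1 was 0.46 to 0.71 in GFP+ myoblasts, 0.87 to 3.00 in bulk myoblasts, 1.47 to 2.12 in GFP+ MPC, 14.5 to 21.6 in differentiated myoblasts and 15.5 to 36.5 in bulk MPC. Cyclin E1 to cyclin E2 was 4.21, 5.56 and 2.62 in GFP+ MPC and 1.49, 1.29 and 0.89 in GFP+ myoblasts, with no overlap.

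Subunits of polymerase alpha and primase stayed within 1.95 to 2.14 times of each other in bulk myoblasts and both sorted groups, measured as the highest over the lowest mean TPM. In differentiated myoblasts the span was 18.4 times, from Pola1 at 0.67 TPM to Pola2 at 12.3 TPM, and in bulk MPC 10.23 times, from Prim2 at 3.48 to Pola2 at 35.6 TPM. The Mcm2-7 ring spanned 2.18 to 2.63 times in the growing, sorted and bulk MPC groups and 6.36 times in differentiated myoblasts, where Mcm7 was at 11.6 and Mcm6 at 1.83 TPM. For RFC the span was 1.73 to 3.12 times in the other groups and 11.2 times in differentiated myoblasts, from Rfc5 at 2.43 to Rfc2 at 27.2 TPM. Gins3 was the lowest GINS subunit in every group except differentiated myoblasts, where Gins2 was lowest. The ratio of Gins3 to Gins2 was 0.91 to 2.16 there and 0.13 to 0.29 in every other library. These ratios are descriptions and were not tested.

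The single high-passage library stood within the range of the 3 GFP+ MPC libraries for 21 members, above it for 12 and below it for 9. The same count was not made over all tested genes, so it shows nothing particular to the members. The median log2 ratio to their mean was 0.05, with no replicate to give its error. E2f2 was at 268 CPM, 1.64 times the GFP+ MPC mean, and E2f1 at 103 CPM, 1.497 times. Rrm2 was at 186 CPM, 0.67 times the mean, and the ratio of Rrm2 to Rrm1 was 1.02. Mcm6 was at 352 CPM, above every other library. Line, age, sex and passage differed from the other groups, so their parts in these values cannot be told apart.

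The exons of 11 members overlap exons of another protein-coding gene on the opposite strand in the annotation used, among them Mcm7, Rfc2, Rfc4, Cdc45, Tk1 and Lig1. The libraries were stranded per the labels, and whether counting used the strand is not given in the sources used here, so reads in the shared stretches could belong to either gene.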

How the data were processed

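Poly(A) RNA of 16 libraries was sequenced as stranded single-end reads, per the labels' protocols. Reads were trimmed with fastp 0.20.0 and quantified with kallisto 0.46.1 against GRCm39, per the submitters' processing notes. The authors deposited estimated counts, effective lengths (bases, per the file headers) and TPM for each of 121798 transcripts. Estimated counts were summed per gene for the 120739 transcripts matched to GENCODE M21 by identifier (1059 were not matched), and rounded. TPM sums were used for levels per length. edgeR 4.0.16 (R 4.3.3, limma 3.58.1) fitted 15 libraries in 5 groups by its quasi-likelihood test with TMM factors (0.767 to 1.15), on 15533 genes kept at a minimum count of 10, with 10 residual degrees of freedom. The threshold was a Benjamini-Hochberg adjusted p of 0.05 over all genes tested, in each of 7 comparisons, and every adjusted p in the text comes from it unless another tool is named. CPM values are scaled by total counts and TMM factors of all 16 libraries, and SE came from the fit. Replicates differed by more than counting noise (chi-square per degree of freedom 10.6 to 64.1), so none was counted as a repeat of another. Only between bulk MPC and bulk myoblasts did all 3 same-numbered pairs of libraries correlate above 0.1 in their deviations from group means (0.13, 0.13 and 0.16). This likeness comes from the data and not from the labels. The main fit did not pair libraries in any comparison, and the replicate number entered only as a block in an alternative fit. Alternatives were RLE factors, total counts only, DESeq2 1.42.0, no filter, only the compared groups, a replicate block, length-scaled counts, and leaving out each library.

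The 42 members and the other lists were chosen with earlier results of these data known. Any member could be named. Of each other list, up to 3 genes with the largest change past the threshold per direction, and any not past it where these were 3 or fewer, were named, besides Mki67, Myh3, Cdkn1a, Cdkn1c and Rrm2b.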

Additional observations from a re-analysis of the deposited data

Results flagged for a closer look

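The difference between GFP+ and whole cells, tested as an interaction term in edgeR with Benjamini-Hochberg adjustment, was larger in MPC than in myoblast cultures for 38 of the 42 genes. Over all tested genes, 20.3% had a larger value in MPC and 16.8% a smaller one. Passage differed between GFP+ and whole cells in myoblasts only, so its part cannot be told apart. Values below are the log2 fold change in MPC cultures minus that in myoblast cultures. Among origin licensing genes they were Orc1 1.83, Orc6 1.18, Cdt1 1.60, Mcm3 1.66, Mcm4 1.79, Mcm5 1.73, Mcm6 1.505 and Mcm7 1.81. For helicase activation they were Mcm10 1.78, Cdc45 1.72, Gins1 1.59, Gins2 1.62, Gins3 1.91 and Gins4 1.01. Polymerase and primase genes were at Pola1 1.57, Prim1 1.59, Prim2 1.89, Pold1 0.68 and Pole 1.96. The clamp and its loader were at Pcna 1.17, Rfc1 0.72, Rfc2 0.84, Rfc3 1.497, Rfc4 1.17 and Rfc5 1.78. Lagging strand and single-strand binding genes were at Fen1 1.205, Lig1 1.85, Rpa1 0.79 and Rpa2 1.08. Deoxynucleotide supply genes were at Rrm1 1.44, Rrm2 1.81, Tyms 1.48 and Tk1 1.88. The G1/S group was at Ccne1 2.53, Ccne2 1.57, E2f1 1.90, Dtl 0.83 and Uhrf1 1.60. Without bulk MPC replicate 2 the values of Orc1, Lig1 and Tk1 were 2.43, 2.47 and 2.57. The calls of Mcm6, Pold1 and Rpa1 each ended without any of bulk MPC replicates 1 or 3, bulk myoblast replicates 1 or 2, or GFP+ myoblast replicates 1 or 2, with Mcm6 at 1.28 to 1.45, Pold1 at 0.55 to 0.69 and Rpa1 at 0.67 to 0.78. Those of Mcm6 and Rpa1 also ended without GFP+ MPC replicate 3 and that of Pold1 without GFP+ MPC replicate 2. The call of Rfc1 ended without any of 9 of the 12 libraries in the comparison (0.58 to 0.77), that of Prim1 without bulk MPC replicate 3 (1.41) and that of Ccne2 without GFP+ MPC replicate 3 (1.21). Under other settings Rfc1 was at 0.66 with RLE size factors and with DESeq2, Rfc1 and Pold1 were at 0.71 and 0.67 with only the compared groups in the fit, and Orc1 and Ccne2 were at 1.58 and 1.03 with length-scaled counts, none of them past the threshold.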

How the results depend on the processing

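Outside single-library omissions, 2026 of 2058 member values were counted as unchanged and 32 as changed, and none that was called reversed. Unchanged values kept their side of the threshold. They also kept their direction, unless a value that was not called shifted by less than its SE. Without GFP+ myoblast replicate 3, GFP+ MPC against GFP+ myoblasts gave 14 members past the threshold in place of 8. Without TMM the median of differentiated against bulk myoblasts was -3.01 in place of -2.79. Leaving TMM out moved the median of all genes to -0.25 there, -0.38 in bulk MPC against bulk myoblasts (members -1.62), 0.46 in GFP+ MPC against bulk MPC (members 3.21) and 0.46 in the difference of sort effects (members 1.93). The cause was not tested. Leaving out each library gave 6 to 14 members past the threshold (median 0.12 to 0.46) between sorted groups, 40 to 41 (2.51 to 3.18) for the MPC sort and 28 to 41 (0.89 to 1.21) for the myoblast sort. It gave 35 to 39 (-1.64 to -1.09) for bulk MPC against bulk myoblasts, 33 to 38 (1.26 to 1.79) for bulk MPC against differentiated myoblasts, 40 to 41 (-2.88 to -2.70) for differentiation and 33 to 39 (1.36 to 2.02) for the difference of sort effects. The main fit did not use replicate numbers as pairs. Over all groups, same-numbered libraries correlated above 0.1 in 8 of 30 pairs (-0.17 to 0.21, other pairs -0.26 to 0.16), among them every pair of bulk MPC with bulk myoblasts. With the replicate block, 8 members passed between sorted groups, 41 in each sort, 38 in bulk MPC against bulk myoblasts, and the 1 call that changed of 294 was Pola1 there (-0.89). Fewer than 20 counts in every differentiated library, as for Orc1, Cdc6, Mcm10 and Gins1, limit the precision of folds.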
